A study of Lates calcarifer with 24 samples.

Results

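Of the 60080 probes on a liver array of Asian seabass, 112 had a higher signal on every array from pellet-fed fish than on every array from fish fed frozen baitfish. These 112 probes are described here. They were chosen by the processed values that the authors deposited: the lowest value over the 20 arrays of Groups B to F had to exceed the highest over the 4 arrays of Group A, and the signal had to be well above background on at least 10 of the 20 pellet arrays. The first condition alone was met by 128 probes and both by 115. Of these 115, the probes of acp5a, fads2 and tm7sf2 were set apart because the supplementary tables pair them with a gene symbol, and they serve below as points of comparison. The opposite pattern, with every pellet array below every Group A array, was found for 45 probes.

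Juvenile Asian seabass were fed the commercial pellets Feed B, Feed C, Feed D, Feed E or Feed F (Groups B to F), or frozen fish (Feed A, Group A, the control), for 61 days from 107 to 168 days post-hatch. Per the labels, livers of 4 fish were taken from each group, and liver RNA was hybridised to 24 single-colour Agilent arrays, 4 a group. The feeds were whole commercial products and not single ingredients, and Group F ate a lower ration of pellets than the other pellet groups, while the control fish ate wet fish and not a dry pellet. Group E stayed on a single pellet size while the other pellet groups changed to larger pellets. The paper left Groups E and F out of its analysis. Fish were siblings, and each tank held a canvas of every feed. The tank behind each array is not given in the labels. All fish came from stock selected for growth over generations, so no group stands for unselected fish. Per the paper, liver samples came from its posterior part. Cell types were not separated, so for a higher signal, more cells of a type and more RNA per cell cannot be told apart. Sex was not given in the sources used here.

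Some limits of the arrays and labels bear on all that follows. Of the spots on an array, 20.4% to 36.0% were well above background. The 8 arrays of slide 1 were dimmer than the other 16, with the 75th percentile of their signal at 22.2 to 32.9 against 42.4 to 80.2. Each of the 3 slides held several groups. In the deposited table, the columns of Group F replicates 2, 3 and 4 followed the scanner values of replicates 4, 2 and 3 (r from 0.990 to 0.996 over 3640 bright probes), and the other 21 columns followed their own arrays (r from 0.982 to 0.998). The mix-up stays inside Group F, so it does not change which probes were chosen. The letters C to F are a further doubt. The supplementary fold-changes of 15 named transcripts were compared with fold-changes computed here with slide in the fit, and 26 of 90 lay within 0.1-fold when the letters C and D were read as labelled. The count was 80 of 90 when the arrays labelled E and F were taken as C and D, a reading chosen after seeing the data. Numbers of DETs (defined below) point the other way. Over all probes, those higher than in Group A numbered 898 for the arrays labelled D, 115 for B, 45 for C, 14 for E and 12 for F. The paper orders its Groups D, B and C by DETs in that same way, which the exchange would not give. Letters below follow the labels, and the feed behind each of the letters C to F is not settled. Membership does not depend on it, because all 20 pellet arrays enter the rule alike.

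The liver turns absorbed nutrients into plasma proteins, stored fat, bile and export lipids. Hepatocytes make up most of it and change the RNA levels of lipid, amino acid and sterol enzymes with the diet. Marine baitfish supplies long-chain polyunsaturated fatty acids and cholesterol ready-made, whereas pellets often replace part of the fish oil and fish meal with plant or animal by-products. The probe of serpina1 (alpha-1 antitrypsin, a plasma protein of hepatocytes) and that of aldh1l1 (a folate enzyme abundant in liver) were well above background on all 24 arrays, at group means of 17.13 to 18.20 and 11.69 to 13.63 log2 signal. Apart from the 15 named transcripts, probes carry a design number and the number of the transcript contig they were designed on, and no gene name. The members are therefore named by design number, with the common ending of the names left out.

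Over the 112 members, the mean of the 5 pellet groups lay above that of Group A by a median of 1.50 log2 units (2.84-fold), with a range of 0.50 to 4.21, on the scale of the quantile-normalized scanner intensities. The median over all probes was 0.008. These differences chose the members and are given as sizes only. By group, the median difference from Group A was 2.0 for D, 1.49 for B, 1.36 for E, 1.35 for C and 1.25 for F. The difference reached 2-fold in 96 members for the mean of the pellet groups. On single arrays the median over the members ran between 0.82 (Group E replicate 2) and 2.21 (Group D replicate 2) in pellet-fed fish, and between -0.05 and 0.13 in Group A. These array medians were 1.56, 1.43, 1.09 and 1.54 in Group B, 1.1, 1.24, 1.21 and 1.51 in Group C, 1.54, 2.21, 2.06 and 2.17 in Group D, 1.69, 0.82, 1.63 and 1.32 in Group E, and 1.14, 1.79, 1.08 and 0.88 in Group F. Thus 3 of the 4 arrays labelled D were above every other pellet array, and the fourth lay among them. On this scale, which is not that of the rule, 102 of the 112 still had every pellet array above every Group A array.

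Differentially expressed transcripts (DETs) are taken here at an adjusted p below 0.05 (limma, Benjamini-Hochberg over all 60080 probes) with at least a 2-fold change. DETs higher than in Group A numbered 97 of the 112 members in Group D (1.49% of all probes), 35 in Group B (0.191%), 17 in Group C (0.0749%), 9 in Group E (0.0233%) and 6 in Group F (0.02%). For the mean of the pellet groups they numbered 91 (0.885%). The rule used this same contrast, so nothing is read from these counts.

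The members were not equally measurable in control fish. In Group A, 57 members were well above background on all 4 arrays, 33 on 1 to 3 arrays and 22 on none. In pellet-fed fish, 83 members were well above background on all 20 arrays, and 5 were on exactly 10. The 57 members measured on all 24 arrays had Group A means of 6.04 to 14.86 log2 signal and differences of 0.50 to 4.21, with a median of 1.25. For the 22 members dim on every Group A array, the fold is a lower limit against the weakest signal well above background on each array. This limit was above 1 in 20 of them and at most 3.24-fold, so most of their fitted differences are not measured sizes. No member was saturated on any array.

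The largest measured difference was that of CUST_12880 (contig SBRGG_02149). Its log2 signal was 11.28, 10.79, 12.06 and 10.95 in Group B, 13.42, 13.26, 12.89 and 13.73 in Group C, 13.88, 12.59, 13.34 and 12.76 in Group D, 10.88, 12.55, 10.80 and 11.59 in Group E, and 12.67, 12.92, 13.17 and 13.82 in Group F, against 7.99, 8.04, 8.34 and 8.67 in Group A. The pellet groups fell into a higher and a lower set that did not overlap: 12.59 to 13.88 over the 12 arrays labelled C, D and F, and 10.79 to 12.55 over the 8 arrays labelled B and E. This split was chosen after seeing the values, and its edges at 12.59 and 12.55 lie close together. The mean of the pellet groups was 4.21 ± 0.29 (SE) log2 units above Group A, or 18.5-fold. On the deposited scale it also had the widest margin between the lowest pellet and the highest Group A value, 1.94 log2 units, while the second widest was 0.62 and the median 0.084.

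Next in size among the members measured on all 4 Group A arrays came CUST_43804 (SBRGG_07706), CUST_45103 (SBRGG_22348) and CUST_37532 (SBRGG_01764). CUST_43804 averaged 12.14 to 13.08 log2 signal in the pellet groups and 10.34 ± 0.68 in Group A (SD, n = 4), a difference of 2.31 ± 0.27 (SE). CUST_45103 averaged 8.79 to 9.82 in the pellet groups and 6.83 ± 0.51 in Group A, a difference of 2.24 ± 0.37. CUST_37532 was at 10.67, 10.17, 9.33 and 9.08 in Group B, 9.31, 9.57, 9.24 and 10.30 in Group C, 10.69, 10.80, 11.31 and 10.92 in Group D, 10.86, 8.73, 10.76 and 10.16 in Group E, and 9.67, 11.27, 9.12 and 9.19 in Group F, against 7.35, 8.03, 8.00 and 8.22 in Group A. Its arrays labelled D were all high, but Group E replicate 2 was the lowest and Group F replicate 2 among the highest of all pellet arrays. The same 2 arrays recur as extremes in many members below.

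Exactly 2 members were well above background on no Group A array and on all 20 pellet arrays. CUST_8681 (SBRGG_25267) was at 7.45, 7.35, 6.06 and 7.02 in Group B, 6.62, 6.73, 6.43 and 7.25 in Group C, 7.71, 7.96, 8.55 and 7.63 in Group D, 7.22, 5.62, 8.08 and 7.70 in Group E, and 6.59, 8.38, 6.06 and 5.70 in Group F, against 5.50, 4.90, 5.20 and 5.04, all dim, in Group A. It was at least 3.24-fold higher in the pellet groups on this scale. CUST_57644 (SBRGG_53641) averaged 7.19 ± 0.70, 6.44 ± 1.04, 7.21 ± 0.62, 5.52 ± 0.58 and 6.26 ± 0.40 in Groups B to F (SD, n = 4 each), and was dim at 2.89 to 3.86 in Group A. It was at least 2.35-fold higher. These limits do not hold on other scales: the difference of CUST_8681 was 1.95 log2 units here, 0.86 with normexp background correction and 0.99 with the deposited values, and that of CUST_57644 was 3.25, 0.99 and 1.16. CUST_13037 (SBRGG_57852), which had the second widest margin, was also dim on all 4 arrays of Group A and was well above background on 3 of 4 arrays in Groups E and F.

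The edge of the rule is narrow. Of the 112 members, 62 had a margin below 0.1 log2 units on the deposited scale and 15 had at least 0.3. Just inside it were CUST_29876 (SBRGG_06388), with a margin of 0.0007, and CUST_26039 (SBRGG_02317), with 0.0014. CUST_29876 spanned 8.81 to 10.98 over the pellet groups against at most 8.81 in Group A on that scale, and its low value came from Group E replicate 2. Just outside were CUST_21164 (SBRGG_00314), among the brightest signals on the array, and CUST_22985 (SBRGG_15761), whose lowest pellet value equalled the highest of Group A.

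Differences among the pellet groups were not a condition of the rule and can be tested, though the rule does set a lower limit for every pellet array and a minimum of detected arrays. Of the pellet groups, the one labelled D had the highest mean in 87 of the 112 members (77.7%). The share of all probes with Group D highest was 20.3%, and it was 24.6% of the 14520 probes that met the detection condition. Neither share is of probes raised over Group A, which were not compared as a set. Over the whole array Group D had the most DETs higher than in Group A (898, against 12 to 115 in the other pellet groups). The probes of acp5a, fads2 and tm7sf2, which met the rule, also had their highest pellet mean in Group D. Group C was highest in 9 members (15.5% of the detected probes), Group E in 6 (19.7%), Group B in 5 (18.4%) and Group F in 5 (21.7%). Of the members, 8 reached the 10 detected arrays only with those of Group D, and Group D was highest in all 8. Without them it was highest in 79 of 104 (76%), beside 23.9% of the probes detected in the same way, and in 63 of the 83 members well above background on all 20 pellet arrays (75.9%), beside 25.4% of such probes. The lowest pellet mean was in Group F for 40 members (29.7% of the detected probes), Group C for 30 (14.5%), Group E for 24 (16.9%), Group B for 13 (19.8%) and Group D for 5 (19.1%). In Group D, 99 members lay above the mean of the other 4 pellet groups and 13 below it. Shares of the detected probes above and below that mean were not computed. The median difference over all 112 was 0.68 log2 units, while that over the detected probes was 0.02. All 4 arrays labelled D were above all arrays of Groups B, C, E and F in 4 members (3.57%, against 0.0999% of all probes).

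Single members seldom passed a test of that difference. The comparison of Group D with the mean of Groups B, C, E and F was chosen after seeing these values. In limma, 63 members were higher in Group D at an unadjusted p below 0.05 (56.2%, against 4.17% of all probes and 6.47% of the detected probes), and 1 was lower (1.27% of all probes). Of the 8 members that reached 10 detected arrays only with Group D, 3 were among the 63. Without these 8, 60 of 104 were higher (57.7%), beside 6.42% of the probes detected in the same way. After adjustment over all probes 0 of the 112 were DETs (0.0782% of all probes), and 1 passed without the fold limit (0.113%). That member, CUST_24245 (SBRGG_41756), was at 9.07, 9.17, 9.37 and 9.53 log2 signal in Group D, against 8.64, 8.62, 8.38 and 9.03 in Group B, 8.25, 8.54, 8.79 and 8.68 in Group C, 8.96, 8.40, 8.52 and 8.32 in Group E, 8.60, 8.64, 8.11 and 8.23 in Group F, and 7.98, 7.52, 7.83 and 7.75 in Group A. It was 0.74 ± 0.14 (SE) log2 units higher in Group D (limma, adjusted p 0.0360), with all 4 of its arrays above the other 16 pellet arrays. CUST_26410 (SBRGG_01902), at 10.43 ± 0.69 in Group D and 8.88 to 9.59 in the other pellet groups, missed the threshold (1.18 ± 0.25, limma adjusted p 0.0818), as did CUST_21873 (SBRGG_07761) at 7.43 ± 0.40 in Group D and 6.00 to 6.59 in the others (1.08 ± 0.23, limma adjusted p 0.0955).

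The count for Group D differed between slides. Within slide 2, which held 2 of these arrays, Group D had the highest pellet mean in 73 members, and within slide 3 in 85, beside 18.7% and 21.9% of the detected probes. Within slide 1, which held Group D replicate 1, it did so in 28 of the 112 members, beside 28.2% of the detected probes, so on that slide the members did not stand above the background. Group E was highest in 56 there, and the share of the detected probes with Group E highest was not computed. The median difference of Group D from the other pellet groups was 0.19 log2 units within slide 1, 0.90 within slide 2 and 0.72 within slide 3. Of 4 marker transcripts, only aldh1l1 passed the test of Group D against the other pellet groups. Both probes chosen as hepatocyte markers had their lowest mean in Group D. The probes of fads2 and lbp, not chosen as markers, had their highest mean there, at 10.42 and 10.10 log2 signal. The aldh1l1 probe was lower there than in the other pellet groups by -1.47 log2 units (limma, adjusted p 0.00415), and serpina1 differed by -0.71 (limma, adjusted p 0.259). The acp5a probe, which marks macrophages and osteoclasts, differed by 1.32 (limma, adjusted p 0.0525), and that of tlr8a, a receptor of myeloid cells, by 0.69 (limma, adjusted p 0.876). The tlr8a probe was well above background on 15 of the 24 arrays. The part of these markers in the members' levels was not tested.

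In the comparisons of pellet groups in pairs, 0 of the 112 members were DETs in any of the 10 pairs under limma, where the share of all probes was 0% for F minus B, F minus C and F minus E, 0.00166% for C minus B and E minus B, 0.00499% for E minus C, 0.00832% for D minus B, 0.0117% for D minus C, 0.0399% for F minus D and 0.0483% for E minus D. The methods' t-test also left 0 after the Benjamini-Hochberg adjustment. When limma was run on the 14520 detected probes alone, 3 members were DETs in E minus D (0.448% of those probes) and 3 in F minus D (0.399%). At an unadjusted p below 0.05, the members passed 226 times over the 10 pairs in limma and 184 times in the methods' t-test. Of the 226, 188 fell in the 4 pairs that involve Group D. Members that reached 10 detected arrays only with Group D were not left out here. In that group 36 members were higher than in Group B (2.02% of all probes) and 52 higher than in Group C (2.37%). Group E was lower than Group D in 40 members (2.54% of all probes) and Group F in 57 (3.79%). Of the other 6 pairs, E minus C had 11 members (2.49% of all probes), F minus E 9 (4.4%) and E minus B 8 (3.46%). F minus B had 5 (5.29%), F minus C 3 (4.52%) and C minus B 2 (2.93%). As shares of the members these ran from 1.79% to 9.82%.

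The F-test across Groups B to F called 1 member, CUST_12880 (limma, adjusted p 0.0422), where it called 0.0433% of all probes. At an unadjusted p below 0.05 it passed 40 members (35.7%), against 4.5% of all probes and 9.66% of the detected probes. The 8 members that reached 10 detected arrays only with Group D were kept in this test. In pairs, CUST_12880 differed by 2.06 ± 0.38 (SE) log2 units between Groups C and B and by 1.88 ± 0.38 between Groups F and B, but no pair passed the adjustment (limma, adjusted p 0.142 to 1). The call did not last: leaving out single arrays gave adjusted p values of 0.00968 to 0.101, with 21 of the 24 above 0.05, and with slide as a block it was 0.0823. The next members by this test with a 2-fold range were CUST_26410 (limma, adjusted p 0.317) and CUST_21873 (limma, adjusted p 0.451).

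Group F, whose fish ate less, was compared with the mean of Groups B to E. Under limma 0 of the 112 members were DETs (0.00166% of all probes), and the smallest adjusted p was 0.353. At an unadjusted p below 0.05, 12 members were lower in Group F (2.62% of all probes) and 4 higher (4.18%). The median difference was -0.26 log2 units, beside -0.05 over the detected probes, and 92 of the 112 were below 0. The share of the detected probes below 0 was not computed, so that count is a description only. This comparison rests on the letter F being right.

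At the other end, some members were raised nearly alike by all pellets. The range of the 5 pellet group means was 0.20 log2 units in the most even member and 3.68 in the most uneven, with a median of 0.915. It reached 2-fold in 44 members, and the share of all probes with such a range was not computed. CUST_16533 (SBRGG_13945) was at 12.48, 12.64, 12.51 and 12.53 in Group B, 12.36, 12.42, 12.63 and 12.24 in Group C, 12.27, 12.52, 12.61 and 12.63 in Group D, 12.32, 12.39, 12.35 and 12.37 in Group E, and 12.55, 12.35, 12.21 and 12.23 in Group F, against 11.95, 11.88, 11.98 and 11.81 in Group A. The pellet arrays lay within 12.21 to 12.64, and all of Group B lay above all of Group E. The step over Group A was 0.53 ± 0.08 (SE) log2 units, or 1.44-fold. CUST_41780 (SBRGG_01319), the next most even, averaged 9.49 to 9.73 in the pellet groups and 8.96 ± 0.16 in Group A.

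Within the pellet groups the members varied together from array to array. After each group's mean was subtracted, the median Pearson r over the 6216 pairs of members was 0.26 over the 20 pellet arrays (5th to 95th percentile -0.36 to 0.74), against 0.02 over the detected probes (-0.52 to 0.57). An r of at least 0.5 was found for 23.1% of pairs of members and 8.01% of pairs of detected probes. With slide subtracted as well, the median was 0.31. The members were measured on the same arrays and slides, so these are descriptions. Without Group E replicate 2 and Group F replicate 2, the median fell to 0.17 and the share of pairs to 15.2%, beside 9.71% of pairs of detected probes. The 3 largest sets that average linkage at r of 0.5 gave held 29 members (median r 0.63), 26 (median r 0.74) and 6 (median r 0.62). The remaining members lay in smaller sets or alone. In the set of 26, Group E replicate 2 lay at a median of 0.41 above Group A, against 1.23 to 2.14 on the other arrays of Group E, and Group F replicate 2 lay at 2.02, against 0.77 to 1.50 on the others of Group F. Group D was highest in 25 of the 29, in all 26 and in all 6. Some members of the set of 29 reached 10 detected arrays only with Group D. CUST_37532, CUST_45103, CUST_8681, CUST_21873 and CUST_29876 belong to the set of 26, and CUST_12880 to none of the sets.

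Per the paper, the 15 named transcripts were those measured by qPCR. Most were picked because they were differentially expressed on its liver arrays, and fads2 and elovl5 were added as typically responsive to dietary fatty acids. They are a chosen list, so their order shows only which of these 15 varied with the members over these arrays. With all 20 pellet arrays, 4 transcripts linked to immunity or macrophages were among the 5 of these 15 most like the members. The median r was 0.47 for tnfsf14 (a cytokine of the tumour necrosis factor superfamily) and 0.42 for lbp (which binds bacterial lipopolysaccharide). It was 0.42 for acp5a (an acid phosphatase of macrophages) and 0.40 for tlr8a (an endosomal receptor for RNA). It was also 0.40 for gnpda1, an enzyme of amino sugar metabolism. Of these 5, acp5a met the rule, and the other 4 came closest to it among the named transcripts that did not. An r of at least 0.5 was reached by 48 members with tnfsf14, 47 with lbp and 41 with acp5a, that is 42.9%, 42.0% and 36.6% of the members, beside 4.6%, 5.85% and 3.16% of the detected probes. For fads2, the desaturase that makes long-chain polyunsaturated fatty acids, the median r was -0.34, and 33 members were at or below -0.5 (29.5%, against 3.56% of the detected probes). On the other side, 4 members were at or above 0.5 (3.57%, against 5.04% of the detected probes). Of these, CUST_9429 (SBRGG_05664) had r of 0.957 with fads2. It was well above background on 3 Group A arrays, and its values in Group A were 8.53, 2.98, 5.92 and 8.03. Its difference from Group A, 3.72 log2 units, thus rests in part on a low signal and is not a measured size. Whether this probe and that of fads2 report the same transcript was not tested. Medians for tm7sf2 (sterol synthesis, -0.10), elovl5 (fatty acid elongation, 0.06), serpina1 (-0.09) and aldh1l1 (-0.02) were near 0. Median Spearman rho was close to r for tnfsf14 (0.45), lbp (0.38), acp5a (0.40) and fads2 (-0.32).

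Much of this likeness, and its order, rested on 2 arrays. Without Group E replicate 2 and Group F replicate 2 the median r was 0.26 for tnfsf14, 0.20 for lbp, 0.11 for acp5a, 0.12 for tlr8a, 0.37 for gnpda1 and -0.24 for fads2. The gnpda1 transcript then stood above those linked to immunity or macrophages. An r of at least 0.5 was then left for 15, 28, 8, 9 and 33 members with the first 5 of these. For lbp this is 25.0% of the members beside 6.32% of the detected probes, and for gnpda1 29.5% beside 5.86%. It is 13.4% beside 4.11% for tnfsf14, 7.14% beside 2.78% for acp5a and 8.04% beside 4.99% for tlr8a. For fads2, 15 members were then at or below -0.5, and the share of the detected probes was not computed. Over all 20 pellet arrays CUST_12880 ran the other way: its r was -0.72 with acp5a, -0.68 with lbp and 0.42 with fads2. Its r without the 2 arrays was not computed. The lbp transcript itself was at 9.87, 8.18, 9.77 and 9.17 log2 signal in Group E and 9.22, 9.78, 7.95 and 8.35 in Group F, with Group E replicate 2 lowest and Group F replicate 2 highest of their groups, as in the members.

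Of the named transcripts, acp5a, fads2 and tm7sf2 met both conditions of the rule. The fads2 probe averaged 8.75 ± 0.36, 9.31 ± 0.78, 10.42 ± 1.1, 9.63 ± 1.04 and 9.43 ± 0.75 in Groups B to F, and was at 7.79, 3.30, 5.43 and 7.67 in Group A, where 2 of 4 arrays were well above background. The low values of Group A are from arrays where the probe was dim, so their spread is not a measured one. The acp5a probe was at 7.86, 8.34, 7.95 and 8.00 in Group D and averaged 6.49 to 7.06 in the other pellet groups, against 5.26 to 5.40 in Group A, of whose arrays 1 was well above background. The tm7sf2 probe averaged 7.84 ± 0.80 in Group D and 5.97 to 7.04 in the other pellet groups, and was dim on all 4 arrays of Group A. Close to the rule without meeting it were gnpda1, lbp, tlr8a and tnfsf14, with margins of -0.059, -0.064, -0.11 and -0.129 log2 units, while elovl5 was further off at -0.593.

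Some members may count a transcript more than once. Contig numbers of 25 members lie within 10 of another member's, in 11 runs, and what neighbouring numbers share is not given in the sources used here. Of the 14 neighbouring pairs, 12 had r of at least 0.5 over the pellet arrays, with a median of 0.80. The pairs SBRGG_01210 and SBRGG_01214, and SBRGG_03675 and SBRGG_03676, each had r of 0.98, while SBRGG_01626 and SBRGG_01629 had r of 0.12. The longest run, from SBRGG_14166 to SBRGG_14180, held 5 members among 15 probes, all 15 of which met the detection condition. The difference of these 5 members from Group A ran from 0.77 to 1.58 log2 units. Repeats under distant contig numbers were not searched for. One example is CUST_35337 (SBRGG_55939) and CUST_52931 (SBRGG_42891), which rose and fell together. In Group B they were at 11.53, 11.12, 9.53 and 9.08 against 9.4, 9.01, 7.47 and 6.9. Counts of members are counts of probes for this reason, not of genes.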

How the data were processed

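Liver RNA from 6 feed groups was measured on 24 single-colour arrays, 4 a group. The authors scanned each array. The deposited scanner output lists a background-subtracted intensity per spot, the median intensities of spot and background, and yes or no flags of no unit (saturated, outlier, well above background). Processed log2 values, normalized by the authors, form a second deposited table, and the submitters' processing notes name Partek. It was used for the rule that picks the members and as an alternative.

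Groups, replicate numbers and feeding times came from the labels, and slides from the scanner output. Detection of a probe on 1 array needed the flag on more than 50% of its spots. The members and gene lists were chosen with earlier results of these data known. Control and outlier spots were dropped, and the background-subtracted intensities of repeat spots were averaged. These averages were taken to log2, and all 24 arrays were then brought to common quantiles (quantile normalization). Dim probes were not filtered, and values were missing on at least 1 array for 48 probes. Each probe was fitted by feed group with moderated variances (limma 3.58.1, R 4.3.3; 1.3 prior degrees of freedom), and p-values were adjusted by Benjamini-Hochberg over all probes of a comparison. The fit was run on simulated data with independent noise and large added changes, which checks the code and not the counts given here. Pairs of pellet groups are given as later letter minus earlier letter. The labels name 4 fish per group, but the methods name more per feed, so whether each array is 1 fish is not settled, and p-values measure only the spread between these arrays. With 4 arrays per group their number limits the precision.

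Members named are the 4 with the largest difference among those measured on every Group A array, the 2 with the largest lower limit, the 2 with the smallest and the 2 with the largest margin with the 2 probes just outside, the 3 with the smallest F-test p and a 2-fold range, the 2 with the most even pellet means, and those paired with a symbol. CUST_24245 was named, and the pellet groups of CUST_12880 were split into 2 sets, after their values were seen. Correlations, linkage and contig runs were computed with Python 3.11.15 (pandas 2.3.3, numpy 2.4.6, scipy 1.17.1). None of the probes matched the reference gene table, and no probe sequences were used here.

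Alternatives were scaling to the 75th percentile, normexp background correction (offset 50, on the median signal), the deposited values, outlier spots kept, the detected probes alone, a block for slide or for replicate number, each slide alone, the 20 pellet arrays alone, other fold limits, the methods' t-test, fits of only the 2 groups compared, other conditions of the rule, and leaving out each array. The comparison of Group D with the other pellet groups, the count of members highest in Group D, also with detection set without its arrays, the correlations without 2 arrays and the reading of the letters C to F were added after seeing the data.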

Additional observations from a re-analysis of the deposited data

Results flagged for a closer look

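Within the 96 sets of 4 arrays that the named members and the 3 transcripts with a symbol give, 9 had an array far from the other 3, where chance gives about 1 in 20. The distance is the gap to the nearest array over the whole range of the group. In CUST_43804, Group E replicate 4 was at 13.29 log2 signal, against 11.78 to 12.02 on the others (0.841). In CUST_57644 and CUST_26410, Group E replicate 1 was high, at 6.38 against 5.18 to 5.30 (0.901) and at 9.52 against 8.74 to 8.84 (0.874). In CUST_26039, Group D replicate 4 was at 11.17 against 10.43 to 10.56 (0.834). For acp5a, Group F replicate 2 was at 7.34 against 6.17 to 6.29 (0.898), and Group A replicate 3 at 5.40 against 5.26 to 5.28 (0.879), where 1 of the 4 arrays was well above background. For fads2, Group B replicate 3 was at 9.28 against 8.51 to 8.61 (0.871) and Group C replicate 2 at 10.47 against 8.85 to 9.06 (0.87). For tm7sf2, Group C replicate 1 was low at 5.50 against 7.15 to 7.41 (0.861).

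The step over Group A differed among the pellet groups in CUST_12880 (F-test of limma, adjusted p 0.0422), a call lost with slide as a block (0.0823), with the replicate block (0.0792), with 75th percentile scaling (0.0589) and in 21 of the 24 fits without 1 array. The step was larger in Group D than in the mean of the other pellet groups in CUST_24245 (limma, adjusted p 0.0360). The values of both are given above.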

How the results depend on the processing

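The number of members differing across Groups B to F, 1 as given, was 0 with 75th percentile scaling, with slide as a block, with the replicate block, on the 20 pellet arrays alone and on slide 1 or slide 2 alone, and 2 on slide 3 alone. Leaving out single arrays gave 0 to 1. DETs between pairs of pellet groups, 0 as given, numbered 1 with normexp or with the deposited values, 2 with slide as a block, 3 on slide 1 alone and 6 on slide 3 alone or with the filter of dim probes, and the methods' t-test at an unadjusted p below 0.05 gave 184. Leaving out single arrays gave 0 to 1, and it gave 1 without Group B replicate 3, Group C replicate 1, Group E replicate 2 or Group F replicate 2. For Group F against the mean of Groups B to E, 0 as given, there was 1 on slide 1 alone and 3 on slide 3 alone, and 0 on leaving out any array.

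Members highest in Group D, 87 as given, numbered 28 on slide 1 alone and 80 to 90 on leaving out single arrays. DETs between Group D and the other pellet groups, 0 as given, numbered 2 with normexp, the deposited values or the filter of dim probes, 1 with slide as a block, on slide 3 alone or without the fold limit, and 0 to 2 on leaving out single arrays, with 2 without Group D replicate 1. Members higher there at an unadjusted p below 0.05, 63 as given, numbered 7 on slide 1 alone, 41 on slide 3 alone and 47 to 69 on leaving out single arrays. On 1 slide most groups have 1 array, which is then assumed to vary like the others. The cause of these shifts was not tested.

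The rule found 107 to 229 probes on leaving out single arrays. It found 177 to 229 when a Group A array was left out and 183 without Group E replicate 2. It found 116 on the quantile-normalized scanner values, of which 102 are among the 112. Deviations of same-numbered arrays of different groups had a median r of 0.20 (-0.40 to 0.56), against -0.09 for other numbers, and those of arrays on the same slide 0.23, against -0.13 on other slides. Not every same-numbered pair was above 0.1, so the replicate numbers were not taken as pairs. Differences of the named members from Group A kept their sign under all alternatives run. The rule used this same contrast, so nothing is read from the sign. These differences moved by more than 1 SD in 7 of 16 with normexp and 6 of 16 with the deposited values. Low signals limit the members dim in Group A to lower bounds.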
